A study of Arabidopsis thaliana with 14 samples.

Results

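DNA methylation was compared between embryo and endosperm of Cvi x Col seeds, in which flowers of the Cvi strain were pollinated by Col-0 and the seeds were dissected 6 days after pollination. The series covers 7 crosses with an embryo and an endosperm library from each, 14 whole-genome bisulfite libraries in all, and 2 of them are described here. In bisulfite sequencing unmethylated cytosines read as thymine, so each read of a cytosine is a call of methylated or unmethylated. With 1 library per tissue there is no replicate error, and every interval below covers counting error only. The regions compared were windows of 300 nt placed every 200 nt along Chr1 to Chr5 in which both libraries had at least 15 calls in CG or CHG, or 50 in CHH. In CHG and CHH the letter H stands for A, C or T. This rule kept 12956 CG, 14289 CHG and 27302 CHH windows. In CG 64521 windows were listed for both libraries, 496947 for the embryo and 66137 for the endosperm, so the windows compared were 2.61% of the embryo's and 19.6% of the endosperm's. They were not a random draw of the genome, since a window had to be covered in a shallow library.

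Methylation in the 3 contexts is kept by different enzymes. MET1 copies CG methylation at replication, CMT3 maintains CHG methylation at histone-marked chromatin, and CHH methylation is made anew by CMT2 or by DRM2, which small RNAs guide to short transposons near genes. Genes themselves often carry CG methylation alone. The endosperm feeds the embryo and carries a surplus of maternal chromosomes, and before fertilization the glycosylase DME removes methylated cytosines in the central cell from which those chromosomes come.

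Depth set the limits of the comparison. Nuclear calls summed over windows were 18130746 in the embryo and 764048 in the endosperm in CG, and 110812055 and 4847341 in CHH. In the windows compared the median was 73 embryo calls and 20 endosperm calls in CG, 69 and 20 in CHG, and 336 and 70 in CHH. The authors kept cytosines with at least 5 reads, so 20 calls came from at most 4 cytosines, and calls from 1 read are not independent. The endosperm library also had a raised floor. On the chloroplast genome, which plants leave unmethylated, 0.766% of its CG calls, 0.855% of its CHG calls and 0.906% of its CHH calls were methylated, whereas the other 9 libraries that listed this genome lay between 0.0354% and 0.342% in CHH. The Cvi x Col embryo listed no chloroplast or mitochondrial windows, so no organelle floor could be computed for it and its floor comes from nuclear windows alone. Bisulfite reads carry no expression marker of either tissue, so the tissue labels were not checked.

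The sequences of 6 windows of the TAIR10.1 reference (RefSeq), read on the plus strand, are printed to show which cytosines the windows hold. Calls were summed per window, so no single cytosine has a value of its own. They were taken from the 5 windows with the lowest adjusted p in their context and direction, except that of YUC10, which was chosen after its values were seen. In the first group the endosperm had far less CG methylation beside genes, and each CG site is in capitals. The windows lie 614 nt upstream of AT4G00130, 827 nt upstream of AT5G26640 and 1523 nt downstream of YUC10, a gene of auxin synthesis known to be imprinted in the endosperm.
AT4G00130 upstream, chr4:47201-47500: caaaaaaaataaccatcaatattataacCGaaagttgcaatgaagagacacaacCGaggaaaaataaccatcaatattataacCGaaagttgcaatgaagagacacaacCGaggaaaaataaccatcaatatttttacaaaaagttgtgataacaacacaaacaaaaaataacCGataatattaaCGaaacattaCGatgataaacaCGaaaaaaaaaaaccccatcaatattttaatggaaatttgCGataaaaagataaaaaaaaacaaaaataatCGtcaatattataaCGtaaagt
AT5G26640 upstream, chr5:9349001-9349300: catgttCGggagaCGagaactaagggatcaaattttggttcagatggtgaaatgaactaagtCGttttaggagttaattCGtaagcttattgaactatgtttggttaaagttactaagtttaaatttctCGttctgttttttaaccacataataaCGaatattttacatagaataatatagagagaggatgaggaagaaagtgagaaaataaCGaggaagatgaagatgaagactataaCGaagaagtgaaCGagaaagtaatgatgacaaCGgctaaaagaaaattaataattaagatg
YUC10 downstream, chr1:18095401-18095700: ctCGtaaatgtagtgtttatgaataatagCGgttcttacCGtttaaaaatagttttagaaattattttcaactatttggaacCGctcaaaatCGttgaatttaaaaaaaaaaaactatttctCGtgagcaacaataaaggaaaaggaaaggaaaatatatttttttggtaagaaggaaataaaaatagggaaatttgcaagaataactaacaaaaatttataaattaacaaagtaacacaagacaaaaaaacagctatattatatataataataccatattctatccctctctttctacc
The 3 windows held 11, 10 and 6 CG sites, at GC contents of 26.7%, 31.7% and 25.3%. The embryo was methylated at 94.9% of 177 calls, 93.3% of 150 and 90.9% of 77, and the endosperm at 28.8% of 59, 28.6% of 77 and 27.8% of 18.

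In the second group the tissues differed in CHH, and each plus-strand cytosine followed by 2 bases other than G is in capitals. Cytosines of the minus strand also belong to the window and are not marked. The first of these windows lies 64 nt downstream of AT5G47890, the next 3851 nt downstream of AT3G43870, and the last overlaps AT4G28080.
AT5G47890 downstream, chr5:19391001-19391300: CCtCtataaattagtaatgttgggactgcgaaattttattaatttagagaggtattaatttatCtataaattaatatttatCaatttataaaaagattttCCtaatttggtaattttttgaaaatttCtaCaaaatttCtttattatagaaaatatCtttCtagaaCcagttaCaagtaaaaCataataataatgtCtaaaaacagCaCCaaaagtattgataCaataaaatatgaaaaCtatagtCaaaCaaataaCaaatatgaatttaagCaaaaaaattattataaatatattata
AT3G43870 downstream, chr3:15733001-15733300: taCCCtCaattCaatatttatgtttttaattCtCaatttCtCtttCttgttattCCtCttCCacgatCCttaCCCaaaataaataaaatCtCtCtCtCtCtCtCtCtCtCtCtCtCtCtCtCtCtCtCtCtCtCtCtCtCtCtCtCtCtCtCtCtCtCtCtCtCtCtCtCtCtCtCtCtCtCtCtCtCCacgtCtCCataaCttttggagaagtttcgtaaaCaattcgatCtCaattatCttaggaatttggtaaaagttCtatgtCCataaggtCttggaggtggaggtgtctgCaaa
AT4G28080 body, chr4:13957801-13958100: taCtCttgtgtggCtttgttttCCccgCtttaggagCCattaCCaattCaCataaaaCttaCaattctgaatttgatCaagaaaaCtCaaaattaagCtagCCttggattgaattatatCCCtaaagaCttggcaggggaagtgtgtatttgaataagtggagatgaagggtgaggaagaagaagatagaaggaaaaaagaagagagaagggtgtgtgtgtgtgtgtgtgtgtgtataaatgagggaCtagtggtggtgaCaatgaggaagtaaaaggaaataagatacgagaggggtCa
Beside AT5G47890 the embryo was methylated at 37.9% of 691 CHH calls and the endosperm at 0 of 159 (Wilson 95% upper bound 2.36%). Near AT3G43870 the values were 57.7% of 414 and 0 of 252 (upper bound 1.5%). At AT4G28080 the order was opposite, with no methylated call among 209 for the embryo (upper bound 1.80%) and 56.7% of 245 for the endosperm. The AT3G43870 window holds 49 CT units in a row and the AT4G28080 window holds 12 GT units in a row. Runs of at least 10 CT or AG units were found in 0.220% of all CHH windows tested, in 4 of 833 windows higher in the embryo (0.480%) and in 9 of 252 higher in the endosperm (3.57%). Runs of at least 10 GT or AC units were found in 0.0110% of all tested, in 0 of 833 and in 1 of 252 (0.397%). What the runs contributed to these calls was not tested.

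Mean methylation was lower in the endosperm than in the embryo in all 3 contexts. Mean CG methylation over windows was 28.8% in the embryo and 20.8% in the endosperm, a difference of -7.96 points that ran from -9.74 to -6.09 over the 5 chromosomes. CHG methylation was 15.2% and 11.3%, a difference of -3.92 points (chromosomes -4.96 to -2.59). CHH methylation was 4.32% and 3.66%, a difference of -0.655 points (-1.01 to -0.420). The order was the same on all 5 chromosomes in each context. Pooled calls over windows that do not overlap gave 32.5% (Wilson 95% interval 32.4 to 32.7) and 25.1% (24.9 to 25.3) in CG, 18% and 13.8% in CHG, and 5.16% and 4.45% in CHH. The CHH median over windows had the opposite order, 0.612% in the embryo and 1.31% in the endosperm, on every chromosome. The CHH difference in means was small and turned to +0.0533 points in means that took every window a library listed, shared or not.

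Most windows were nearly free of methylation in both tissues, and the means therefore mix different kinds of region. The embryo had no methylated CG call in 46.4% of windows and the endosperm in 53.0%. Windows were next sorted by their state in libraries outside the comparison, the selfed embryos of Col x Col and Cvi x Cvi. Embryos chose these classes, so windows methylated in endosperm alone are not among the methylated ones.

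Windows unmethylated in both selfed embryos gave the floor of each library (CG at most 10%, CHG and CHH at most 2%). There the endosperm lay above the embryo, at 0.877% against 0.460% over 3802 CG windows, 1.02% against 0.374% over 3812 CHG windows and 1.01% against 0.426% over 5769 CHH windows. The endosperm was the higher on all 5 chromosomes in each context. The nuclear CHH floor of the endosperm was near its chloroplast level of 0.906%. Embryos chose these windows, so any that are methylated in endosperm alone would count toward the endosperm floor.

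The gap was wide in windows that both selfed embryos methylated in all contexts, the pattern of silenced transposons (CG at least 60%, CHG at least 20% and CHH at least 10%). CG methylation was 90.8% in the embryo and 66.4% in the endosperm over 978 windows. CHG was 68.0% and 47.8% over 964 windows, and CHH was 20.0% and 14.3% over 1375 windows. The endosperm thus had 73.2%, 70.3% and 71.6% of the embryo level over these sets, which differ between contexts. Over the 364 windows measured in every context it had 74.6% in CG, 71.2% in CHG and 82.0% in CHH, and it was lower in 95.1% in CG, 87.9% in CHG and 67.3% in CHH, and in 59.6% it was lower in all of them.

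**Figure D1:**
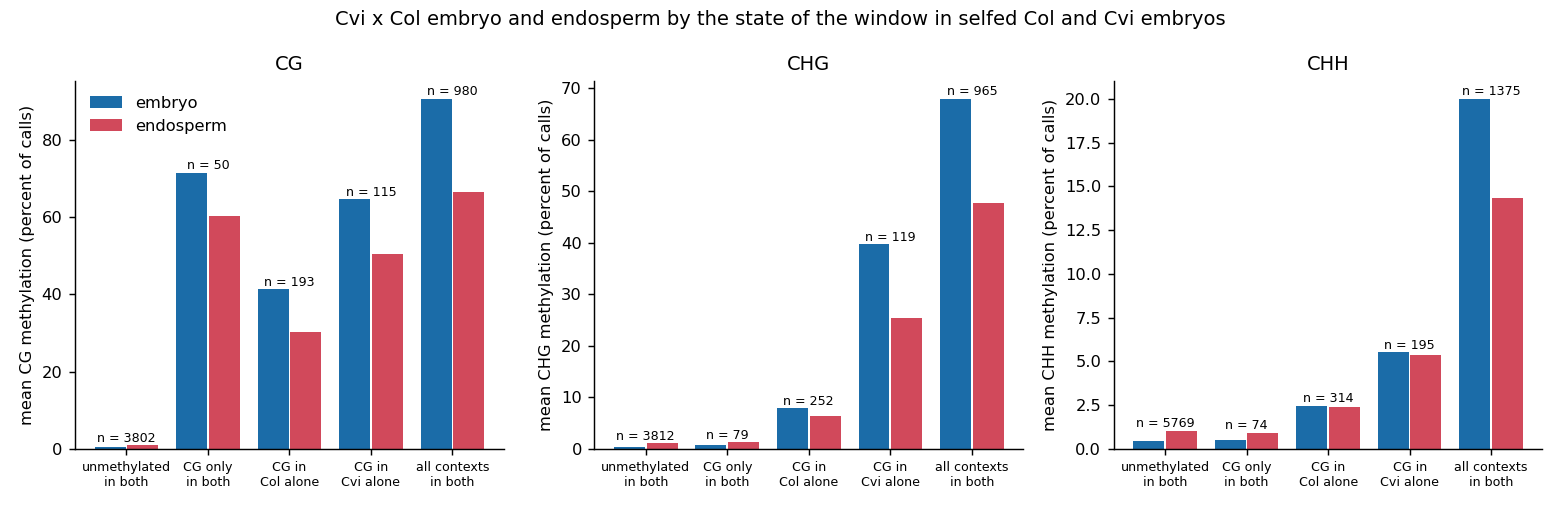
Mean methylation (percent of calls, bars from 0) of Cvi x Col embryo and endosperm in CG, CHG and CHH, for windows grouped by their state in selfed Col and Cvi embryos. Bars are means over the number of windows printed above them and carry no error bar because each tissue has 1 library. In windows methylated in all contexts CG methylation is 90.8% in the embryo and 66.5% in the endosperm over 980 windows, 2 of which had too few reference cytosines to be tested, and in unmethylated windows the endosperm lies above the embryo.

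Methylated windows did not all differ by the same amount. In CG the embryo had 93.7% of these windows at 80% or more and none of 978 under 40%. The endosperm had 31.2% at 80% or more and 10.4% under 40%. The middle 50% of endosperm windows lay between 53.7% and 81.5% in CG and between 32.0% and 63.3% in CHG. An endosperm window with about 20 calls has a wide counting error of its own, which adds to this spread.

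**Figure D2:**
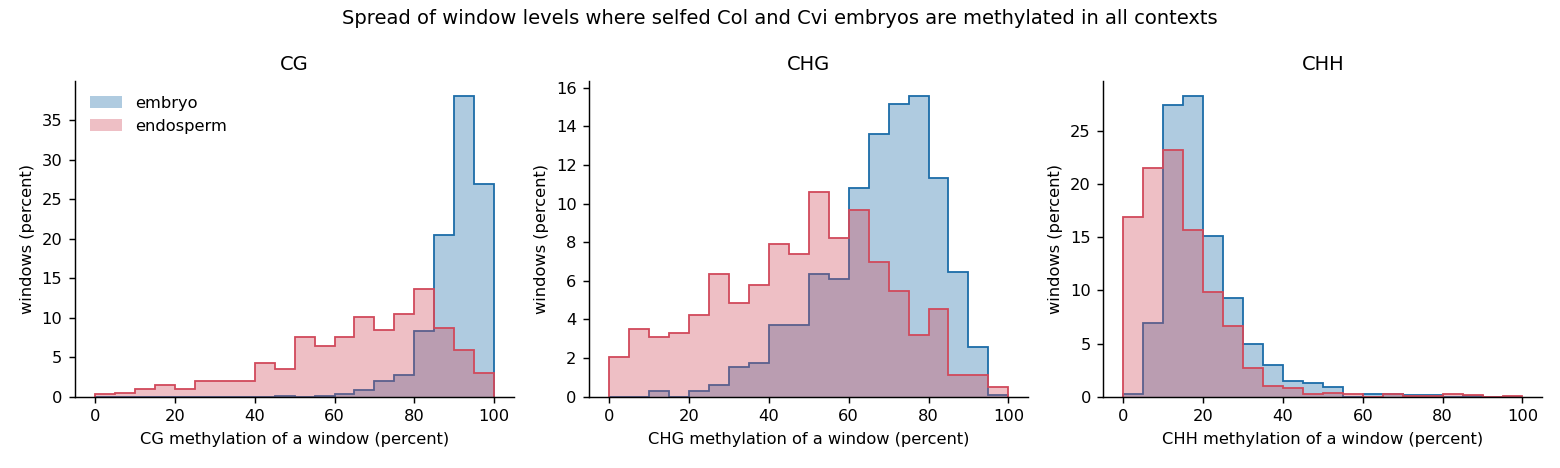
Histograms of window methylation (x axis, percent of calls; y axis, percent of windows) in Cvi x Col embryo and endosperm, over windows methylated in all contexts in both selfed embryos. In CG the embryo is packed above 80% with a median of 92.4%, and the endosperm spreads down to below 40% around a median of 70.0%.

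How much methylation the endosperm kept depended on where a window lay. Within 1 kb of a protein-coding gene the endosperm had 50.2% CG methylation against 89.9% in the embryo over 192 windows, which is 55.8% of the embryo level (chromosomes 49.0 to 58.2). In windows on pseudogenes, as RefSeq annotates them, it had 75.1% against 91.7% over 304 windows, or 81.9% of the embryo level (80.9 to 83.0). The ranges over chromosomes did not overlap. CHG methylation near genes was at 45.9% of the embryo level (40.1 to 51.2) and on pseudogenes at 75.7% (70.5 to 79.3). CHH methylation was at 46.4% near genes (33.5 to 54.8) and at 90.8% on pseudogenes (80.4 to 101.9). Windows beside genes therefore kept less than pseudogenes in every context and on every chromosome.

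Upstream and downstream flanks had like values, at 53.5% and 60.1% of the embryo level in CG, 46.2% and 45.5% in CHG, and 46.2% and 47.0% in CHH. Distance from the centromere gave a parallel order. Methylated windows over 4 Mb from a centromere midpoint kept 61.2% of CG methylation, those at 1 to 4 Mb kept 73.5% and those within 1 Mb kept 79.6%. In CHH the same bins kept 49.1%, 74.1% and 88.1%. Gene distance and centromere distance were not separated from each other. Under 6 other settings, chosen after the data were seen, the CG value near genes ran from 53.2% to 60.9% and that of pseudogenes from 80.2% to 83.0%, and the CHG value near genes rose to 60.9% over the 26 windows with at least 30 calls.

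**Figure D3:**
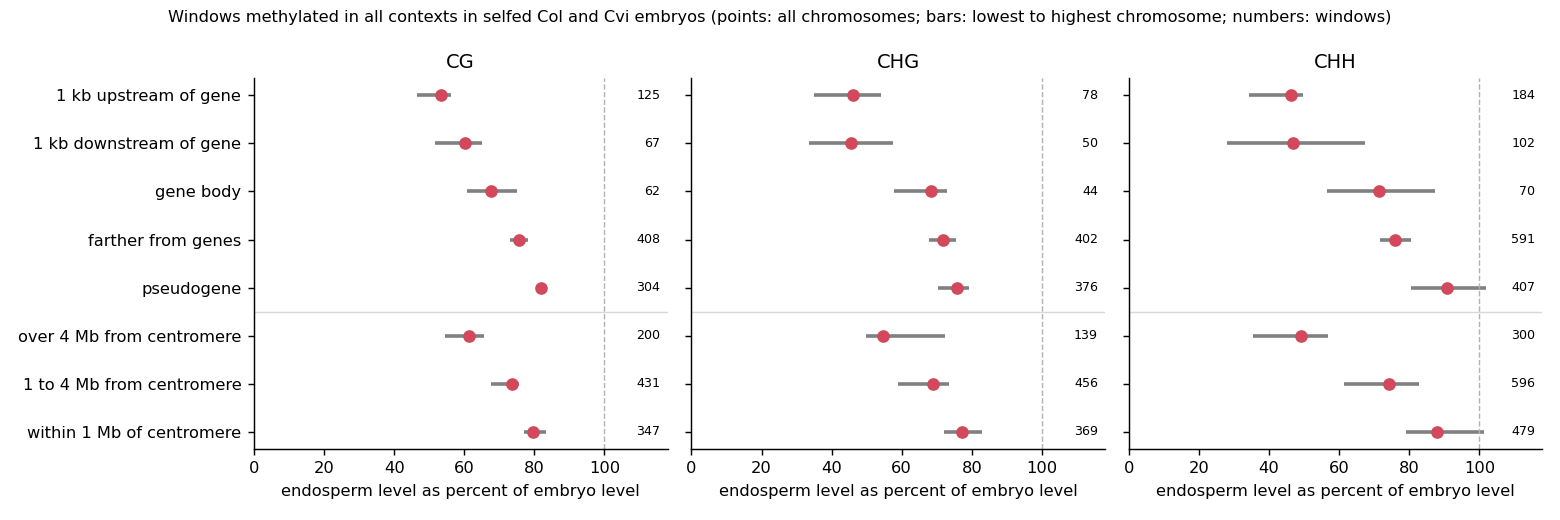
Endosperm methylation as a percent of the embryo level (x axis) in windows methylated in all contexts in both selfed embryos, by annotation and by distance from the centromere. Points use all chromosomes, bars run from the lowest to the highest chromosome, and the number of windows stands at the right. Gene flanks sit lowest, at 53.5% and 60.1% in CG, and pseudogenes highest among annotations, at 81.9%.

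Over all windows of the comparison, gene-body means differed little between the tissues, and the gene-body median in CG was 0% in both. CG methylation in 6485 gene-body windows was 10.1% in the embryo and 7.94% in the endosperm. CHG was 2.60% and 2.49% over 8668 windows. In CHH the endosperm was the higher, at 1.52% against 1.18% over 12353 windows and on all 5 chromosomes, a gap of 0.339 points that is smaller than the 0.581 points between the floors of the libraries. The gap was wide in the 62 gene-body windows methylated in all contexts in both selfed embryos. There CG methylation was 91.3% in the embryo and 61.6% in the endosperm, or 67.5% of the embryo level. Over all windows, upstream flanks had 23.0% and 12.6% in CG, 8.71% and 4.97% in CHG, and 3.96% and 2.57% in CHH. In these flanks the endosperm was lower on all 5 chromosomes.

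The same contrast was seen around gene starts. The CG gap was widest in the bin centred 1100 nt upstream, at 17.4% in the embryo and 9.51% in the endosperm, and narrowest in the bin 100 nt inside the gene, at 3.6% and 2.91%. In CHH the embryo was higher 900 nt upstream, at 3.08% against 2.09%, and lower 300 nt inside, at 0.845% against 1.27%.

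**Figure D4:**
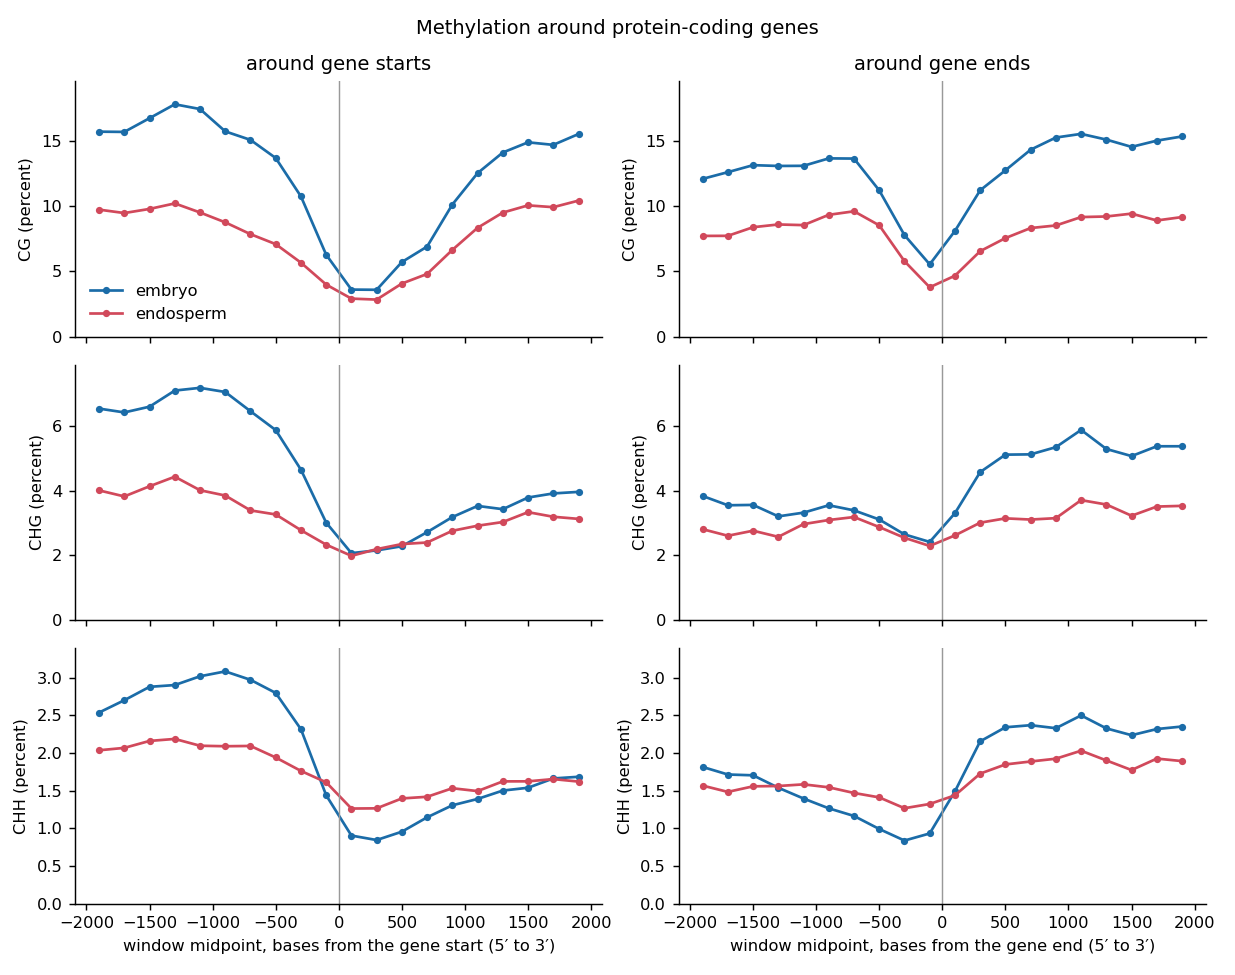
Mean methylation (y axis, percent) of Cvi x Col embryo and endosperm by the distance of the window midpoint from the start or end of protein-coding genes (x axis, nt, in bins of 200 nt). The CG curves are farthest apart upstream, 17.4% and 9.51% at 1100 nt, and nearly meet just inside the gene, and the CHH curves cross near the start.

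Few windows carried CG methylation without CHG or CHH in both selfed embryos, as gene bodies do. In 50 such windows CG methylation was 71.6% in the embryo and 60.4% in the endosperm, with 4 of 5 chromosomes lower. This class kept 84.5% of the embryo level. Its CHG level was 0.707% and 1.23% over 79 windows and its CHH level 0.511% and 0.927% over 74, close to the floor of each library.

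Windows methylated in 1 parental strain alone served as a check of the cross. Where only the Col embryo was methylated (85.5% against 0.830% in Cvi), the Cvi x Col embryo had 41.3% CG methylation, close to the 43.2% midway between the parents, and the endosperm 30.3% over 193 windows. Where only Cvi was methylated (87.7% against 1.09% in Col), the hybrid embryo had 64.6% and the endosperm 50.4% over 115 windows, with the midpoint at 44.4%. That excess of the embryo over the midpoint was smaller in all 1148 windows of this kind that the embryo covered, at 49.0% against 43.5%. In the 115 windows the Cvi x Cvi embryo had a median of 122 calls, against 32 over all such windows, so those compared were unusually deep, and what this contributed was not tested. The endosperm was lower than the embryo on all 5 chromosomes in both classes. The midpoint weighs both parents equally, but the endosperm carries more maternal Cvi than paternal Col chromosomes. By itself this surplus would lower the endosperm level where only Col was methylated and raise it where only Cvi was. What it contributed to these levels was not tested.

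The reciprocal cross, Col x Cvi, has the same parents in exchanged roles. With a minimum of 5 calls so that enough windows were shared, the windows methylated in Col alone had 40.6% in the embryo and 26.9% in the endosperm of Cvi x Col, where Col was the father, and 45.2% and 27.4% in Col x Cvi, where it was the mother (258 windows). Windows methylated in Cvi alone had 59.3% and 40.8% in Cvi x Col, and 59.3% and 30.6% in Col x Cvi (140 windows). Windows methylated in both strains had 90.4% and 63.4% in Cvi x Col, and 90.2% and 55.2% in Col x Cvi (1063 windows). The calls were not split by parental allele, and the difference between the crosses was not tested.

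Single windows were then called different by a two-sided Fisher's exact test that set methylated against unmethylated calls, with Benjamini-Hochberg adjustment over all windows of a context, an adjusted p under 0.01 and a difference of 35 points or more (CG and CHG) or 10 points or more (CHH). Such a test compares these 2 libraries, not embryo and endosperm in general. Embryo-higher windows numbered 1032 of 12948 (7.97%) in CG, 253 of 14264 (1.77%) in CHG and 833 of 27302 (3.05%) in CHH. Endosperm-higher windows numbered 17 (0.131%), 7 (0.0491%) and 252 (0.923%). The embryo had a median of 4.5 to 4.86 calls per reference cytosine over the contexts and the endosperm 1.02 to 1.43. When embryo calls were thinned to the endosperm's number in each window, 544 and 4 windows passed in CG, 64 and 1 in CHG, and 428 and 109 in CHH.

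The CG windows higher in the embryo lay mostly outside genes. Gene bodies held 12.7% of them (Wilson 95% interval 10.8 to 14.9) but 50.1% of the windows tested. The 1 kb upstream of genes held 26.0% against 15.1%, the 1 kb downstream 13.2% against 5.34%, and windows farther from genes 38.1% against 18.3%. By annotation, 13.7% of upstream windows and 19.7% of downstream windows were called, against 2.02% of gene-body windows. A window with little embryo methylation cannot be called in this direction. Mean embryo CG methylation was 10.1% in gene bodies, 23.0% upstream and 60.1% farther from genes. These shares therefore depend in part on where the embryo was methylated. Among windows methylated in all contexts in both selfed embryos, 30.6% of 62 in gene bodies were called. The value was 57.3% of 192 within 1 kb of genes, 20.6% of 408 farther away and 6.58% of 304 on pseudogenes. In CHH upstream windows made up 33.7% of the calls and 20.8% of the windows tested.

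At the called CG windows the embryo averaged 87.0% and the endosperm 33.6%. In the same windows CHG was 47.3% and 22.7% over the 270 of them that had enough calls, 41 of which were also called in CHG. CHH was 14.1% and 6.22% over 604, of which 135 were called. Among the windows not called in CG, CHG was 17.5% and 13.8%, and CHH 3.93% and 3.86%.

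Of the 5 CG windows with the lowest adjusted p, those beside AT4G00130 and AT5G26640 are printed above. Another, 1066 nt downstream of NUDT6, a Nudix hydrolase gene, had 94.1% of 288 calls in the embryo and 28.6% of 56 in the endosperm, and 78.4% and 39.5% in the Cvi x Cvi tissues. The first in rank lay 6501 nt upstream of MCM5 near the centromere of chromosome 2, at 84.7% of 417 and 20.2% of 99, with 81.2% and 19.3% in Cvi x Cvi. In CHG the leading windows away from AT2G07638 were 1037 nt upstream of AT2G40520 (85.1% of 168 calls and 13.9% of 36), in AT2G08986 (81.5% of 200 and 40.9% of 154) and 2049 nt downstream of AT4G06744 (79.6% of 108 and 8.33% of 24). The Cvi x Cvi endosperm was at 19.8% in the first of these, 41.1% in the next and 48.7% in the last.

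Overlapping and adjoining CG windows merged into 791 regions, and 568 of these were a single window. The longest ran over 900 nt at chr1:16237001-16237900, ending 625 nt upstream of AT1G43145. In CHG the longest, also 900 nt, lay 3794 nt upstream of SWEET7, a sugar transporter gene. The longest in CHH, of 900 nt, overlapped GSTU22, which encodes a glutathione transferase.

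In the other direction, 14 of the 17 CG windows higher in the endosperm lay in gene bodies. That is 82.4% (Wilson interval 59.0 to 93.8), beside 50.1% of the windows tested. A window highly methylated in the embryo cannot be called in this direction, so this share too depends in part on the embryo level. These 17 windows had a median of 17 endosperm calls. Their median in the selfed embryos was 63.8% in Col, and 0% in Cvi over the 15 measured there. What differences between the parents contributed to these calls was not tested. The first 2 of the 17 were in LOX2, a lipoxygenase of jasmonate synthesis. There the embryo had 40.4% (161 calls) and the endosperm 95.7% (23 calls, Wilson interval 79.0 to 99.2), with an adjusted Fisher p of 7.5e-06. The selfed embryos were at 98.1% in Col and 0 of 25 calls in Cvi, so the window is polymorphic between the parents. The other 3 of the 5 leading windows were in AT1G07795 (22.0% of 159 calls and 82.4% of 17), in AT3G11450 (0 of 30 and 56.5% of 23) and 4503 nt upstream of EHD2 (45.9% of 98 and 100% of 15). With the embryo thinned, the windows at AT1G07795 and EHD2 no longer passed. The selfed embryos of Col and Cvi were at 1.47% and 32.9% at AT1G07795, at 63.8% and 0% at AT3G11450, and at 0% and 88.0% at EHD2.

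The 7 CHG windows higher in the endosperm included 2 in AT5G51590 and 2 in AT2G44220. In AT5G51590 0 of 138 embryo calls and 38.1% of 21 endosperm calls were methylated, and the Cvi x Cvi endosperm had 11.2% of 107. In AT1G50790 the values were 0 of 44 and 51.7% of 29. The Cvi x Cvi endosperm had 45.1% there and the Col x Col and Cvi x Cvi embryos had 0 of 130 and 0 of 20. With the embryo thinned, the AT1G50790 window was the 1 that passed among the 5 windows with the lowest p, which also include AT4G31650 (0 of 111 and 36.8% of 19).

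The 252 CHH windows higher in the endosperm fell into 2 kinds by the embryo level. In 173 the embryo had at least 1%, with means of 16.5% in the embryo and 40.9% in the endosperm. In 79 the embryo was under 1%, with means of 0.313% and 20.8%, and the Cvi x Cvi endosperm had a mean of 4.85% in 77 of these. The leading window at AT4G28080, whose sequence is given above, had 0% of 376 calls in the Cvi x Cvi endosperm. The next, 780 nt upstream of AT2G48160, had 0 of 71 embryo calls and 81.5% of 422 endosperm calls. It lies at the end of chromosome 2, at 19697601 to 19697900 of 19698289 nt. Here, as at AT4G28080, the endosperm was the deeper library, which held for 368 of 27302 CHH windows. What depth contributed was not tested. Upstream of AT2G48160 the Col x Col embryo had 73.5% and the Cvi x Cvi embryo 80.4%, and both Col x Cvi tissues at least 58.9%, so the Cvi x Col embryo stood apart. In STP11, a hexose transporter gene of pollen tubes, 2 windows had 0 of 229 and 0 of 181 embryo calls against 48.3% of 176 and 51.2% of 166 endosperm calls. The Cvi x Cvi endosperm had none at these windows, in 175 and 241 calls.

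The strongest CHH windows higher in the embryo, after the one near AT3G43870, were 2203 nt upstream of SUS1, a sucrose synthase gene (50.6% of 745 calls and 9.22% of 206), beside AT5G47890, 376 nt upstream of CPSRP54 (47.3% of 588 and 5.06% of 158) and 3108 nt downstream of AT1G40104 (72.6% of 632 and 5.88% of 51). Beside AT5G47890 and CPSRP54 the Cvi x Cvi cross had the same order, at 30.3% and 0.584%, and at 42.1% and 1.03%. Near AT1G40104 its endosperm was at 51.0%, and in the AT3G43870 window with the CT run at 58.1%.

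Embryo-higher windows were looked up in other crosses, whose libraries are separate although Cvi x Cvi and Col x Cvi share parents with Cvi x Col. Of the 882 CG windows called in Cvi x Col and tested in Cvi x Cvi, 627 were called there too, 71.1% of the Cvi x Col list, where 1186 of all 10790 windows tested in both were called in Cvi x Cvi. They made up 52.9% of those 1186, where 8.17% of all windows were called in Cvi x Col. With Ler x Ler, which shares no parent, 394 CG windows were called in both, 53.0% of the Cvi x Col list (beside 686 of 9922 windows called in Ler x Ler) and 57.4% of the other list (beside 7.49% called in Cvi x Col). With Col x Cvi 119 were shared, 57.8% (beside 420 of 2424) and 28.3% (beside 8.50%). In CHG 80 windows were shared with Cvi x Cvi, 36.5% (beside 389 of 11899) and 20.6% (beside 1.84%), and 52 with Ler x Ler, 31.7% (beside 263 of 10861) and 19.8% (beside 1.51%). With Col x Cvi 9 CHG windows were shared, 17.0% (beside 35 of 2355) and 25.7% (beside 2.25%). In CHH 520 windows were shared with Cvi x Cvi, 66.5% (beside 1379 of 24612) and 37.7% (beside 3.18%). Among endosperm-higher windows 6 of 10790 CG windows were called in Cvi x Cvi, and none was among the 15 of Cvi x Col. In CHH 13 were shared, 5.73% of the 227 of Cvi x Col (beside 71 of 24612) and 18.3% of those 71 (beside 0.922%).

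To use the shallow endosperm more fully, calls were pooled over the 1 kb upstream of each protein-coding gene, its body and the 1 kb downstream, in windows that do not overlap and with at least 30 calls in both libraries (100 in CHH). Embryo-higher features numbered 97 of 1977 (4.91%) in CG, 10 of 2328 (0.43%) in CHG and 173 of 5232 (3.31%) in CHH. Endosperm-higher features numbered 1 (0.0506%), 0 (0%) and 30 (0.573%). Flanks led in CG, with 52 of 569 upstream and 39 of 416 downstream features called against 6 of 992 bodies. As with single windows, a feature with little embryo methylation cannot be called higher in the embryo. Flanks and bodies of neighbouring genes can hold the same windows, so the features called are not all distinct regions. The set of alternate windows gave 96 CG features higher in the embryo, 29 of them shared with the 97. Of 627 features tested in all contexts, 1 was higher in the embryo in every context.

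Among the 10 CG features with the lowest adjusted p, most lay in gene flanks. The 1 kb upstream of AT4G00130 had 94.9% in the embryo and 28.8% in the endosperm (adjusted Fisher p = 2.18e-21). Downstream of ELF8, which encodes a subunit of the PAF1 complex that travels with RNA polymerase, the levels were 82.4% (Wilson interval 73.8 to 88.5) and 6.90% (2.71 to 16.4). Upstream of AT4G03635 they were 92.3% of 246 and 21.4% of 42, and downstream of its neighbour AT4G03630, in part of the same sequence, 81.9% of 232 and 12.8% of 47. AT1G43145 had 92.5% of 375 and 37.9% of 58 upstream. XERICO, a RING finger protein gene tied to abscisic acid, had 87.2% of 235 and 32.9% of 79 downstream. AT1G30470 had 75.5% of 155 and 4.35% of 46 upstream, and FRS10, of the FAR1 transcription factor family, 89.0% of 154 and 32.0% of 75 upstream.

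The same features were low in the selfed Cvi x Cvi endosperm. Its embryo and endosperm were at 71.3% and 22.0% upstream of AT4G00130, 93.8% and 26.7% upstream of AT4G03635, 93.2% and 40.4% upstream of AT1G43145, and 88.3% and 34.6% downstream of XERICO. At FRS10 the values were 85.0% and 45.1%.

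A pair of genes next to the centromere of chromosome 2 stood apart. In the body of AT2G07667 the embryo had 96.3% CG methylation in 54 calls and the endosperm 7.19% in 139, and downstream of it 100% in 44 and 22.4% in 161. In the body of AT2G07638 CHG methylation was 78.3% in 60 calls and 4.51% in 443. Here the endosperm was the deeper library, which held for 329 of 12948 CG windows, 22 of them higher in the embryo. In the Col reference a copy of the mitochondrial genome lies by this centromere, and mitochondrial windows of the endosperm library were at 3.05% in CG and 2.51% in CHG. In the AT2G07638 window the Col x Col embryo had 3.74% of 1552 CG calls methylated and the Cvi x Cvi libraries none listed, so the Cvi x Col embryo, with 95.7% of 23 calls, differed from the other embryo too. The part of depth and of mitochondrial reads in these values was not tested.

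**Figure D5:**
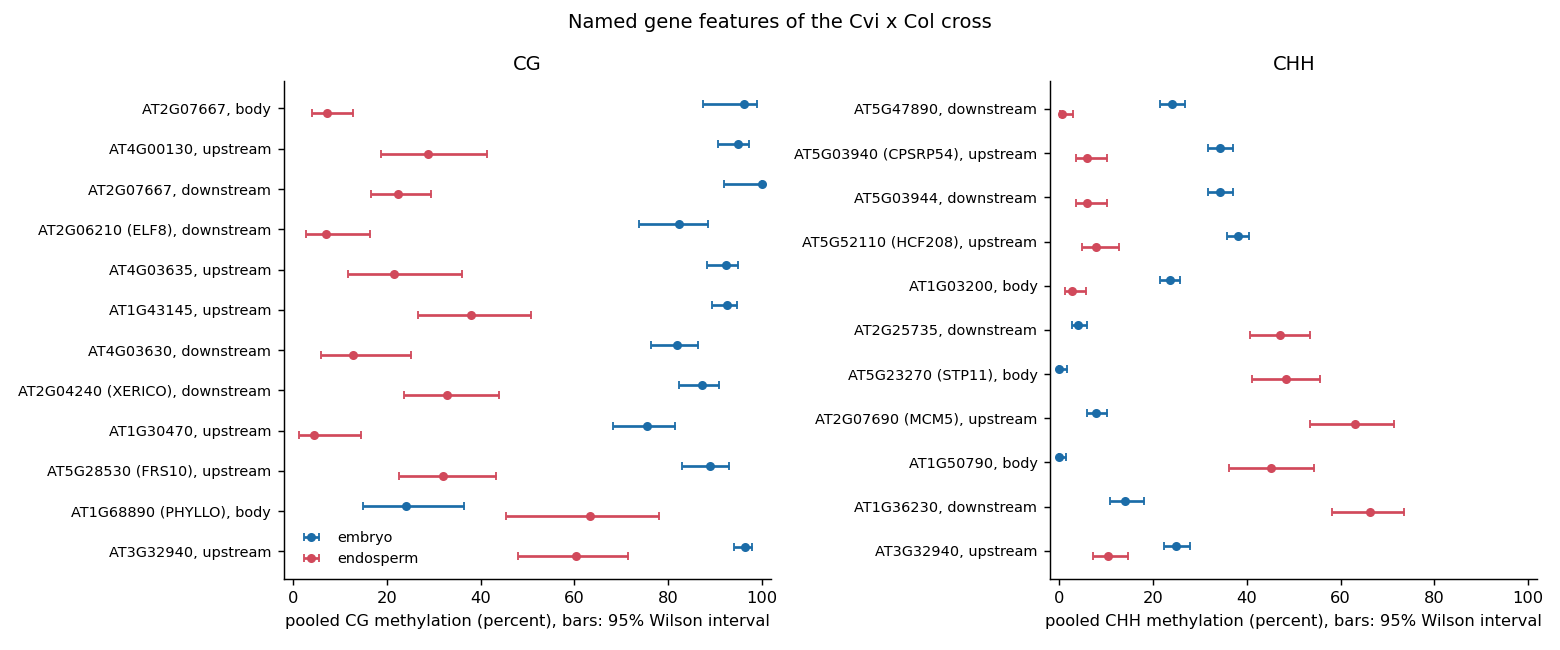
Pooled CG and CHH methylation (x axis, percent) of the named gene features in Cvi x Col embryo and endosperm, with bars for the Wilson 95% interval of counting error. In CG all features shown but the body of PHYLLO are lower in the endosperm, for instance 94.9% and 28.8% upstream of AT4G00130, and in CHH 5 features are higher there.

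In CHG the leading features outside chromosome 2's centromere were downstream of RLP45, a receptor-like protein gene, with 75.1% of 217 calls in the embryo and 25% of 48 in the endosperm (adjusted Fisher p = 3.09e-08), and upstream of FRS10, with 49.7% of 199 and 4% of 50. Upstream of AT2G16835 they were 47.1% of 87 and 0 of 30 (upper bound 11.4%). That last difference was -15.7 points in the other set of alternate windows and was not called there.

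In CHH the leading features were downstream of AT5G47890 (24.1% of 1010 calls and 0.500% of 200), upstream of CPSRP54, which encodes the chloroplast signal recognition particle subunit (34.3% of 1249 and 5.94% of 202), upstream of HCF208, needed to assemble the cytochrome b6f complex (38.1% of 1521 and 7.89% of 190), and in the body of AT1G03200 (23.5% of 1623 and 2.63% of 228). The region upstream of CPSRP54 is also downstream of AT5G03944 and was counted under both genes. In the Cvi x Cvi cross the embryo and endosperm were at 18.6% and 4.29% downstream of AT5G47890, 28.2% and 0.898% upstream of CPSRP54, 33.0% and 8.51% at HCF208, and 18.6% and 2.11% at AT1G03200.

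The upstream region of AT3G32940 was the 1 feature higher in the embryo in every context. CG methylation was 96.5% of 342 calls in the embryo and 60.3% of 63 in the endosperm. CHG was 53.8% of 169 and 15.6% of 45, and CHH 24.9% of 924 and 10.4% of 260. In the other set of alternate windows the CG difference was -27.3 points, short of the 35 points required.

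Features higher in the endosperm were fewer. In CG the body of PHYLLO, a gene of phylloquinone synthesis, had 24.1% of 58 calls in the embryo and 63.3% of 30 in the endosperm (adjusted Fisher p = 0.00565). In the other set of alternate windows the difference was 2.11 points and was not called. In CHH the leading 5 were downstream of AT2G25735 (4.02% of 646 calls and 47.0% of 236), the body of STP11, upstream of MCM5, a subunit of the replicative helicase (7.77% of 669 and 63.0% of 108), the body of AT1G50790 (0 of 256 and 45.0% of 111) and downstream of AT1G36230 (14.0% of 344 and 66.2% of 142). In Cvi x Cvi the embryo and endosperm had 30.0% and 29.4% at AT2G25735, 0% and 0% at STP11, 5.97% and 0% at MCM5, 0% and 30.8% at AT1G50790, and 12.4% and 15.6% at AT1G36230. Of these 5 regions, AT1G50790 and AT1G36230 had the order of Cvi x Col there, the latter by few points.

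Genes of known roles were examined as lists. As pooled features, none of the 12 candidates for allele-specific imprinting, 22 imprinted genes, 28 DNA methylation genes, 9 seed storage protein genes and 11 type I MADS-box genes was called in any context, but few could be tested. In CG the numbers of features tested were 1, 3, 1, 0 and 0, in CHG 1, 5, 11, 0 and 1, and in CHH 4, 9, 13, 0 and 2. Median differences over the lists in CHH were -0.347 points for the candidates, 0.270 for imprinted genes and 0.212 for DNA methylation genes, against 0.273 over all features. The Polycomb genes MEA and FIS2, the demethylase gene DME and the methyltransferase gene MET1 were among those tested in their bodies and stayed under 3% in both tissues in each context tested. That does not hold for every window within 2 kb. A window at FIS2 had 16.1% of 87 CHG calls in the embryo and 21.1% of 19 in the endosperm. A window at MET1 had 8.32% of 529 CHH calls and 4.55% of 66. Neither was called. Of the candidates HDG3 had 0.863% and 0.575% CHH methylation in its body, VIN3 0.626% and 0.461%, and AT3G14205 1.14% and 0.667% upstream. No CG window within 2 kb of HDG3 had enough calls, so its CG level was not measured. A CG window within 2 kb of AT3G14205 had 0 of 31 embryo calls and 33.3% of 15 endosperm calls methylated and was not called.

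Single windows within 2 kb of the listed genes gave more. In CG 10 of 54 such windows were embryo-higher (18.5%, beside 7.97% of all windows tested) and none endosperm-higher, in CHG 0 of 84 were called (beside 1.77%), and in CHH 5 of 160 (3.13%, beside 3.05%) were embryo-higher and 2 endosperm-higher (beside 0.923%). Neighbouring windows overlap, so these counts are not of independent regions. The genes named in the rest of this paragraph were chosen after their values were seen. YUC10 had 3 CG windows, at 89.7% of 126 calls and 31.3% of 16 upstream, and at 90.9% and 27.8% downstream. VIM1, a reader of methylated DNA needed for CG maintenance, had 98.2% of 55 calls in the embryo and 40% of 25 in the endosperm 286 nt upstream. CHR38, also known as CLSY1, a chromatin remodeller of RNA-directed methylation, fell upstream in CG from 100% of 42 calls to 53.6% of 28, and in CHH from 45.3% of 320 to 10.2% of 59.

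Type I MADS-box genes, many of them active in the endosperm, held 5 of those CG windows, in 9 tested at 4 genes (beside 7.97% of all windows tested). The 5 windows lay at 2 genes and overlapped their neighbours, so they are not 5 independent regions. AT5G26630 had 3 upstream, at 94.3%, 93.3% and 95.4% in the embryo and 22.2%, 28.6% and 29.7% in the endosperm, the middle one being the printed window that also lies upstream of AT5G26640. AGL28 had 2 that overlapped the gene, at 80.4% of 143 calls and 22.7% of 22, and at 69.7% of 99 and 23.5% of 17. In CHH AGL36 fell upstream from 15.5% of 657 to 0 of 56 and AGL46 from 26.3% of 589 to 3.57% of 84. SUVH5, a histone methyltransferase gene, fell from 12.7% of 560 to 0 of 79. In the opposite direction, 1 window in the body of ATRX, a chromatin remodeller among the candidates, had 28.2% of 227 and 64.9% of 97. The order was reversed in that window in Cvi x Cvi (58.7% of 150 and 23.3% of 232) and in Col x Cvi (36.4% of 379 and 0 of 21). The Col x Col embryo had 11.0% of 336 there. Another ATRX window, at 0 of 265 and 3.33% of 60, was not called. SUVH7 had 0 of 204 and 11.5% of 52 downstream. These genes too were chosen after their values were seen.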

How the data were processed

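The deposited files hold, per 300-nt window, counts of methylated and unmethylated cytosine calls and the percent methylated, made by the authors from Bismark alignments to TAIR10 with cytosines of at least 5 reads. Per the study's methods, unaligned reads of Cvi were tried on TAIR10 carrying Cvi SNPs, both sets were joined, and duplicate reads were removed. For hybrids of Col and Cvi the methods give the same order. Reads went to TAIR10 first, those that failed went to TAIR10 carrying Cvi SNPs, and redundant reads were discarded. Bismark and FastQC versions are not given in the sources used here. Levels are means of deposited window percentages recomputed from the counts. Windows needed at least 15 calls (50 in CHH) in both libraries and, for testing, 3 reference cytosines (10 in CHH). A two-sided Fisher's exact test with Benjamini-Hochberg adjustment (scipy 1.17.1, numpy 2.4.6, pandas 2.3.3, Python 3.11.15) was run on every window and on gene features. With 1 library per tissue it compares libraries, and its p-values are too small because calls from 1 read are not independent. Wilson 95% intervals cover counting error only. Figures used matplotlib 3.10.9. Scripts were tested on simulated data.

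Named items were the 12 candidates, called list members, the gene features with the lowest adjusted p (10 in CG, 5 in CHG and CHH, 5 higher in endosperm per context), features called in all 3 contexts, and the 5 windows with the lowest adjusted p per context and direction. Members and lists were chosen with earlier results of these data known. Alternatives were other call minimums, thresholds, window sets, floors and depths. Mitochondrial and chloroplast windows entered no comparison.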

Additional observations from a re-analysis of the deposited data

Results flagged for a closer look

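The chloroplast genome, which entered no comparison, was methylated above the level of the other libraries in the Cvi x Col endosperm. There 0.766% of CG calls, 0.855% of CHG calls and 0.906% of CHH calls were methylated. The other 9 libraries with chloroplast windows ran from 0.0298% to 0.278% in CG, from 0.0235% to 0.268% in CHG and from 0.0354% to 0.342% in CHH.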

How the results depend on the processing

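No paired analysis was possible because each tissue has 1 library. The lower CG and CHG levels of the endosperm kept their direction under every alternative tried, and the CHH level did so under all but 1. In the order CG, CHG and CHH, the difference in points was -9.80 and -5.18 at 30 calls, -6.62, -2.18 and 0.0533 over each library's own windows, -7.40, -4.19 and -0.712 for pooled calls, -8.73, -4.78 and -1.56 with the chloroplast level subtracted, and -6.64, -2.79 and -0.601 over 1 Mb from centromeres. Over all windows listed in both it was -0.537 in CHH. Of the alternatives chosen after seeing the data, subtracting the nuclear floor gave -8.38, -4.57 and -1.24, and leaving out the top 5% of embryo depth gave -7.36, -3.50 and -0.491.

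Counts of called windows moved more. Given as higher in embryo and higher in endosperm, they were 220 and 0 in CG, 58 and 0 in CHG, and 254 and 82 in CHH at 30 calls (100 in CHH). With the embryo thinned they were 544 and 4, 64 and 1, and 428 and 109. At 50 points (20 in CHH) they were 566 and 9, 135 and 2, and 442 and 115. In every second window they were 516 and 6, 114 and 3, and 413 and 121. With at least 2 endosperm calls per reference cytosine, a choice made after seeing the data, they were 435 and 2, 117 and 0, and 173 and 34. At an adjusted p under 0.001, 7 CG windows were higher in the endosperm, and 111 CHG and 540 CHH windows in the embryo. Gene features higher in the embryo at 60 calls (200 in CHH) numbered 6 in CG, 1 in CHG and 18 in CHH. In the alternate set of windows 96 CG features were called, 29 of them the same features. The calls at PHYLLO, AT2G16835 and AT3G32940 were lost under at least 1 alternative chosen after seeing the data. Several other named features did not reach the call minimum in the alternate set, so they were not tested there. Among them were those at FRS10, AT2G07638, HCF208, AT2G25735, MCM5, AT1G50790 and AT1G36230. The endosperm's depth limits all calls, and without replicates no difference between seeds was measured.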
